A study of Mus musculus with 5 samples.

Results

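The distal end of chromosome 4 between 145000000 and 148000000 (mm10) holds a cluster of KRAB zinc finger genes together with the processed pseudogenes Gm13034 and Gm13241. DNA methylation was described here at every CpG position of this interval that had at least 10 methylation calls in each of 5 enhanced reduced representation bisulphite sequencing (eRRBS) libraries on the allele described. By that rule 267 of 167622 autosomal positions on the castaneus allele and 355 of 162007 on the domesticus allele lay in the interval. A position is a cytosine on 1 strand, so both cytosines of a CpG can be counted. The 472 positions covered on either allele stood at 341 CpGs of the reference, with 1 further position that was not a CpG there, and 150 positions were covered on both alleles. Call depth alone chose the positions, and the interval was chosen with results of these data known, so its values are a description. On the castaneus allele the 2 positions whose shallowest library had 10 calls averaged 1.10% mC in control and 9.92% in Setdb1 depleted libraries, and the 1 position left out at 9 calls had 55.1% and 43.5%. On the domesticus allele these averages were 36.8% and 26.4% for 11 positions at 10 calls, and 10.98% and 11.1% for 4 left out at 9 calls.

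All libraries came from female mouse embryonic fibroblasts (MEFs) of E13.5 embryos from 129/C57 dams and CAST sires, so each cell carried a domesticus and a castaneus copy of every autosome. All cells also carried Xist-deltaA/+, a mutant Xist allele from the dam that forces inactivation of the castaneus X. The Female control group (n = 3) was Setdb1+/+ and transduced with a Nonsilencing hairpin, and the Setdb1 depleted group (n = 2) was Setdb1+/gt and transduced with the hairpin shSetdb1, so gene trap and hairpin differed together and cannot be told apart. The methylation files hold no measure of Setdb1 itself, fibroblast identity was not checked by expression, and the labels do not say whether replicates were separate embryos. Within 1 kb of the starts of Zrsr1, an imprinted gene methylated on the maternal allele, 10 positions (chr11:22972010-22974145) had 93.1 to 97.3% domesticus and 1.23 to 5.74% castaneus mC, so the allele labelled domesticus carried the maternal mark.

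KRAB zinc finger proteins bind DNA, often at transposable elements, and recruit Trim28, which brings in Setdb1. Setdb1 then methylates histone H3 at lysine 9, and such regions commonly carry DNA methylation too. Clusters of KRAB zinc finger genes arose by repeated duplication, and duplication also multiplied any processed pseudogene lying within the repeated unit. A processed pseudogene is a reverse transcribed copy of an mRNA put back into the genome. The start of a gene is usually a CpG island with little methylation, whereas methylated CpGs are lost over time by mutation to TG or CA.

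Each library held 9440874 to 10253624 castaneus calls and 9617634 to 10558931 domesticus calls. In the interval these were 23674 to 26354 and 20668 to 22886. The median position of the interval had 53 to 60 castaneus calls, or 42 to 50 domesticus calls, in the shallowest and deepest library. The sources do not say whether PCR duplicates were removed, so calls may repeat molecules.

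In GENCODE annotation the covered positions did not lie at the starts of the zinc finger genes after which the cluster is named. Of 105 annotated genes 21 were zinc finger genes, and none of these had a covered position within 1 kb of such a start on either allele. Of 51 processed pseudogenes, 15 had one on the castaneus allele and 14 on the domesticus allele, and of 11 other protein-coding genes 2 and 4 did. In RefSeq annotation, which differs, a Zfp978 transcript starts next to a locus at the pseudogene Gm13162 and a Zfp982 transcript start lies within a locus at Gm13161. The data therefore describe mainly processed pseudogenes within the zinc finger cluster. Zinc finger gene starts elsewhere on the autosomes averaged 3.99% mC over 3465 castaneus positions and 4.67% over 3266 domesticus positions in control libraries.

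Neighbouring positions at most 100 bp apart were joined into loci of at least 3 positions, which gave 27 castaneus loci with 254 of the 267 positions and 32 domesticus loci with 339 of the 355. Copies of the starts of 5 genes held 22 of the 27 and 23 of the 32 loci, and 84.6% and 76.6% of the positions. These parents were Smarca5, an ATPase of ISWI chromatin remodellers, Cdv3, a gene named for its association with carnitine deficiency, Ppp2r5a, a regulatory subunit of protein phosphatase 2A, Tlk2, a kinase of the histone chaperone Asf1, and Znrf1, a RING finger ubiquitin ligase. All 5 parents lie on other chromosomes.

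The Smarca5 copies differed by few bases, and their sequence is shown because more loci of the interval stand on copies of this start than of any other. The stretch lies just before the annotated start of Smarca5 as it was copied into each pseudogene, is read on the strand of the copy, and has its CpGs in capitals. All sequences are those of the mm10 reference and not of an allele. The other 5 were 95.1 to 98.04% identical to Gm13140 over this stretch, and each held 12 or 13 CpGs.
Smarca5-ps (plus strand, chr4:145463791-145463892): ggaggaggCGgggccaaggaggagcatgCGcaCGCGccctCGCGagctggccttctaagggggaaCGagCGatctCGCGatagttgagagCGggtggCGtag
Gm13231 (plus strand, chr4:145640651-145640752): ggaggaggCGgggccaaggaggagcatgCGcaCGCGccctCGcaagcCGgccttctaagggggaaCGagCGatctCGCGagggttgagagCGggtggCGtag
Gm13034 (plus strand, chr4:146067245-146067346): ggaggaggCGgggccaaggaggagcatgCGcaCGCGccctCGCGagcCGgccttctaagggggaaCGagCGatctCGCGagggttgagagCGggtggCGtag
Gm13140 (plus strand, chr4:146941969-146942070): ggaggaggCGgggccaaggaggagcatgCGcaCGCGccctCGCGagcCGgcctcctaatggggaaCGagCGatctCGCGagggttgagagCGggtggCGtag
Gm13135 (plus strand, chr4:147275473-147275574): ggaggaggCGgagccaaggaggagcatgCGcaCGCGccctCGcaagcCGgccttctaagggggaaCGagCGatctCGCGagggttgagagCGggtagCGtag
Gm13136 (minus strand, chr4:147739012-147739113): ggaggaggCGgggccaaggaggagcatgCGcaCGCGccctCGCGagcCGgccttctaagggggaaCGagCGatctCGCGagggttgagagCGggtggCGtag

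Over whole matches of 784 to 1103 bases the 6 Smarca5 copies were 94.4 to 95.5% identical to their parent and kept 72.8 to 84.3% of its CpGs. In control libraries the printed stretch had 54.6% ± 6.53 mC at Gm13140 (10 CpGs covered), 46.0% ± 16.6 at Gm13136 (6 CpGs), 35.5% ± 2.62 at Gm13231 (6 CpGs), 31.5% ± 2.60 at Smarca5-ps (6 CpGs) and 20.3% ± 1.14 at Gm13135 (6 CpGs) on the domesticus allele (SD, n = 3). On the castaneus allele Gm13136 had 62.6% ± 4.43 over 10 CpGs and Smarca5-ps 14.8% ± 4.57 over 6. The stretch of Gm13034 was not covered, and the CpGs covered were not the same in each copy.

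The Cdv3 copies are shown over the part that matches the start of the coding sequence, where Gm13241 had all 17 of its castaneus positions at the second of its loci and 17 domesticus positions. CpGs are in capitals. The 3 others were 92.5 to 95.0% identical to Gm13241.
Gm13238 (plus strand, chr4:145837222-145837336): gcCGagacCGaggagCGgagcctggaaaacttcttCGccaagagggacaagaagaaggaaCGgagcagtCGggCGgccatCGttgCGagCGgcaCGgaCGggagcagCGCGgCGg
Gm13241 (plus strand, chr4:146475332-146475451): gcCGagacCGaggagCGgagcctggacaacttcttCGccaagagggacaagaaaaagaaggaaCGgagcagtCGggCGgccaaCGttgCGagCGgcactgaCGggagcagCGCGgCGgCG
Gm20760 (plus strand, chr4:146932745-146932864): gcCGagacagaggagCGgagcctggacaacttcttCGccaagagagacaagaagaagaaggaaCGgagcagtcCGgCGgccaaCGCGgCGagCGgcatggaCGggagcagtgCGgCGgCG
Gm13146 (plus strand, chr4:147187711-147187827): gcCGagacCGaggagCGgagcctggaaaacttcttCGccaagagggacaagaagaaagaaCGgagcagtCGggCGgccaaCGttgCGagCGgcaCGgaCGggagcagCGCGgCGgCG

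Gm13238, Gm13241, Gm20760 and Gm13146 matched 674 to 706 bases of Cdv3 at 89.0 to 90.7% identity and kept 65.0 to 69.3% of its CpGs, fewer than any Smarca5 copy. The 5 other Cdv3 copies matched 194 bases each and kept 33.3 to 48.1%. In the stretch printed, control mC on the domesticus allele was 80.5% ± 9.02 at Gm13238 (6 CpGs covered), 63.1% ± 2.06 at Gm13241 (14 CpGs) and 6.21% ± 3.62 at Gm20760 (3 CpGs) (SD, n = 3). On the castaneus allele it was 59.0% ± 3.82 at Gm13241 (14 CpGs) and 31.4% ± 9.10 at Gm20760 (4 CpGs). The CpGs covered were thus not the same in each copy.

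A copy with little methylation is Gm13142, from the start of Ppp2r5a. Its stretch before the start of Ppp2r5a, with CpGs in capitals, had 2.47% ± 1.14 mC on the domesticus allele in control libraries (SD, n = 3) over 324 to 448 calls.
Gm13142 (plus strand, chr4:147101690-147101780): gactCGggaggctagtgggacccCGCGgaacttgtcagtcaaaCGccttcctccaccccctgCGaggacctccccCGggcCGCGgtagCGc

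Intermediate methylation was common in the interval. Of the castaneus positions 42.0% had 20 to 80% mC, against 15.8% on the remaining autosomes, and of the domesticus positions 38.3% against 16.4%. Positions over 80% made up 6.37% and 7.32% in the interval and 22.1% and 23.1% elsewhere. Within 1 kb of an annotated gene start, control mC averaged 28.1% ± 1.17 (castaneus, 192 positions) and 24.3% ± 1.17 (domesticus, 280 positions) in the interval, against 8.16% ± 0.0878 and 8.50% ± 0.0803 at such positions elsewhere (SD, n = 3). The distribution by level shows the surplus between 10 and 70% on both alleles.

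**Figure D1:**
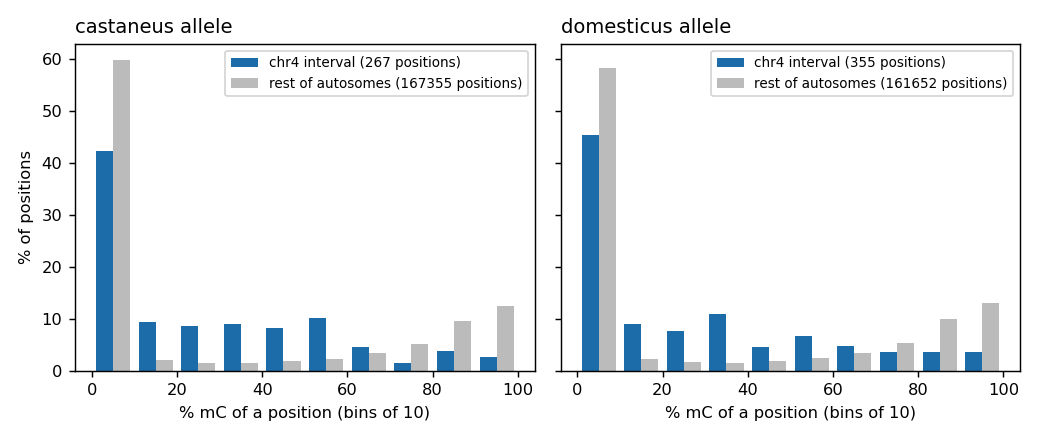
Share of positions (y axis, %) in each 10-point bin of mC averaged over the 5 libraries (x axis, %), for the interval and all other autosomal positions on each allele. Positions under 10% were 42.3% of the castaneus and 45.4% of the domesticus positions of the interval, and bins between 10 and 60% stood above the rest of the autosomes.

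The mean over all positions was lower in both Setdb1 depleted libraries than in every control library, on each allele. For castaneus these means were 29.5, 28.4 and 27.5% in the control libraries and 25.1 and 27.0% in the Setdb1 depleted ones, a mean of 28.5% ± 1.00 (SD, n = 3) against 26.0% ± 1.31 (SD, n = 2). On the domesticus allele it was 26.8, 29.3 and 27.6% against 25.2 and 24.5%, a mean of 27.9% ± 1.27 against 24.9% ± 0.497. The differences were -2.46 and -3.09 percentage points. The castaneus difference was -1.54 without Setdb1 depleted replicate 1 and -3.97 with calls pooled over positions, and the domesticus difference was -0.640 at the 41 positions without a further copy in the genome. Over all other autosomal positions the means differed by 0.0198 and 0.0305 points. The interval's mean got no test, because the interval was chosen with results known.

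**Figure D2:**
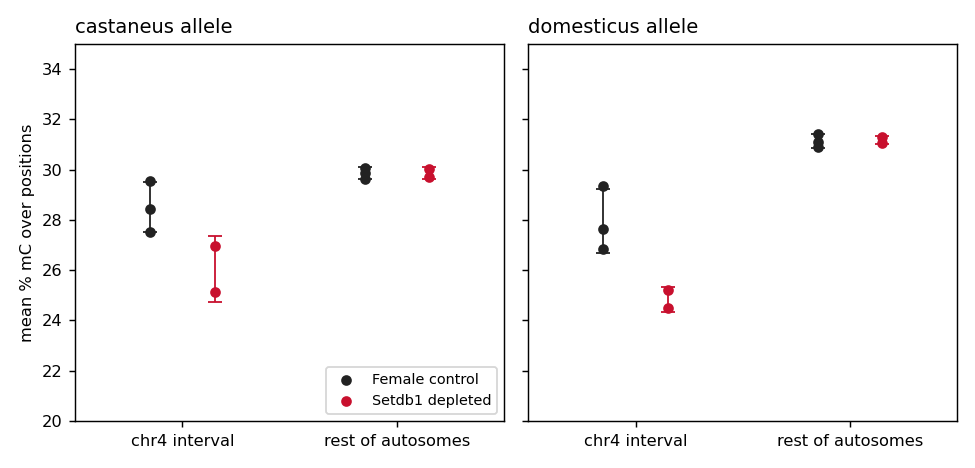
Mean mC over positions (y axis, %, drawn from 20 to 35%) of each library in the chromosome 4 interval and on the remaining autosomes, by allele, with bars for the group mean ± SD (Female control n = 3, Setdb1 depleted n = 2). Depleted libraries lay under the controls in the interval, by 2.46 points (castaneus) and 3.09 points (domesticus) between group means.

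The difference was larger at the Smarca5 and Cdv3 copies. Positions at their loci alone differed by -4.75 points on the castaneus allele (130 positions) and -5.54 points on the domesticus allele (174 positions), and all other positions of the interval by -0.290 (137 positions) and -0.741 points (181 positions). This split was made after the values were seen. Many of the other positions had little methylation to lose, so the split in points does not show a change particular to these families. The locus map shows the same families: the Smarca5 and Cdv3 copies ran from a few percent to 74.7% mC, while no locus of the Ppp2r5a, Tlk2 and Znrf1 copies passed 6.37%.

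**Figure D3:**
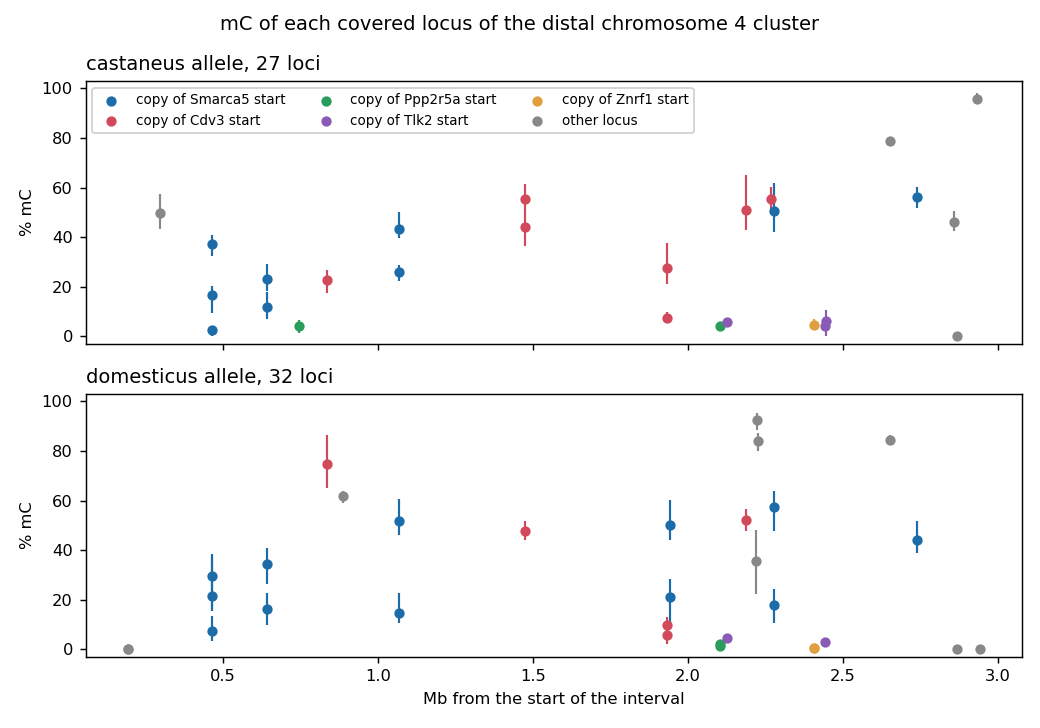
mC (y axis, %) of each locus against its distance from the start of the interval (x axis, Mb), for 27 castaneus and 32 domesticus loci coloured by the gene whose start was copied. Dots are the mean of the 2 group means and lines run from the lowest to the highest of 5 libraries. Smarca5 and Cdv3 copies were spread over levels up to 56.2% (castaneus) and 74.7% (domesticus), and Ppp2r5a, Tlk2 and Znrf1 copies stayed low.

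The quasi-binomial model over all autosomal features, with dispersions moderated by limma, called no locus of the interval at an adjusted p under 0.05, nor did limma, against 0.0474% of all castaneus and 0.0377% of all domesticus loci. Neither called any of the interval's positions, against 0.00179% and 0.0204% of all positions in the model. At an unadjusted p under 0.05 the model had 15 castaneus positions (5.62%) lower and 5 (1.87%) higher, against 1.16% and 1.16% of all positions, and 12 domesticus positions (3.38%) lower and 1 (0.282%) higher, against 1.14% and 1.17%. At an unadjusted p under 0.05, 8 of 27 castaneus loci were lower in Setdb1 depleted libraries against a background of 2.35%, and 3 of 32 domesticus loci against 2.29%. None was higher on either allele, against 1.72% and 1.85% of all loci, so a count of 0 is near the background at these numbers of loci. Among loci between 10 and 90% mC these were 8 of 17 against 4.49% and 3 of 19 against 4.40%. All 11 were loci of Smarca5 or Cdv3 copies. Without Setdb1 depleted replicate 1 the castaneus count was 1, against 1.96% of all loci in that fit, and with limma on log2 ratios it was also 1, against 2.43%, both near the background. The domesticus count was 5 without Female control replicate 1 (2.35% of all loci), Setdb1 depleted replicate 1 (1.94%) or Setdb1 depleted replicate 2 (1.502%), and 6 with the replicate number as a block, a fit that also leaves out Female control replicate 3 (2.35%). Without that library and with no block it was 3 (2.45%).

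Counts of loci whose libraries did not overlap between the groups went the same way for lower loci, but not for higher castaneus loci. Lower in both depleted libraries were 7 castaneus loci, against 7.97% of all loci (25.9% of the interval's), and 6 domesticus loci, against 8.24% (18.8%). Higher were 3 castaneus loci (11.1%), against 8.12%, and 0 domesticus loci, against 8.22%. Among loci between 10 and 90% mC, 7 of 17 castaneus loci were lower without overlap, against 10.8%, and 5 of 19 domesticus loci, against 11.2%. Among single positions 43 castaneus (16.1%) and 43 domesticus positions (12.1%) were lower without overlap, against 4.67% and 4.83%, and 12 (4.49%) and 9 (2.54%) were higher, against 4.93% and 5.06%. Neighbouring positions share reads, so these positions are not independent.

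Gm13241, a Cdv3 copy, had the smallest p of the interval's loci in the quasi-binomial model, but not with limma, where the smallest were at Gm13231 on both alleles. Its domesticus locus (chr4:146475206-146475451, 28 positions, overlapping the annotated exon of the pseudogene) had 50.6, 51.9 and 50.8% mC in the control libraries and 44.9 and 44.2% in the Setdb1 depleted ones. The groups did not overlap, and the difference of -6.56 points had an adjusted p of 0.208 over all autosomal loci in the quasi-binomial model. Its unadjusted p was 0.000235 in that model and 0.408 with limma on log2 ratios. On the castaneus allele a locus just upstream (chr4:146475043-146475097, 8 positions) had 45.8, 48.9 and 48.8% against 36.6 and 43.8%, with an adjusted p of 0.870. Without Setdb1 depleted replicate 1 its difference of -7.62 points was -3.99. The second castaneus locus (chr4:146475334-146475451, 17 positions) had 61.0, 61.4 and 54.6% against 48.5 and 55.0%, so that 1 depleted library lay within the control range, and the difference of -7.27 points was -4.01 without depleted replicate 1. The castaneus share of calls was 98.5 to 100% in the 5 libraries at the upstream locus and 19.2 to 24.1% at the domesticus locus, so the alleles were read at unequal depth.

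Gm13034, a Smarca5 copy, had loci at 2 places on each allele. Its castaneus locus beside the annotated start (chr4:146067682-146067734, 17 positions, 2438 to 3230 calls) had 28.8, 28.0 and 27.8% in the control libraries and 22.1 and 25.01% in the depleted ones, with an adjusted p of 0.674. At its castaneus locus 564 bp upstream (chr4:146067118-146067188, 4 positions) the values were 43.2, 50.3 and 47.2% against 40.6 and 39.5%. Both depleted libraries were lower at both castaneus loci. The domesticus allele overlapped between groups at both loci, with 13.48, 22.7 and 10.8% against 15.9 and 11.1% beside the start, and 60.8, 46.2 and 50.5% against 50.3 and 51.9% upstream. The depletion effect was not called as different between the alleles at either place, with adjusted p of 0.998 beside the start and 0.995 upstream. The castaneus share of calls was 74.96 to 85.97% at the castaneus locus beside the start and 68.4 to 82.5% upstream. Beside the start it differed by strand. At chr4:146067682 (plus strand) the share was 27.3 to 30.2%, with 16 to 24 castaneus calls. At chr4:146067683 (minus strand) it was 81.1 to 94.3%, with 232 to 308 castaneus calls.

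The largest castaneus difference without overlap was at the Cdv3 copy Gm13146 (chr4:147187874-147187921, 6 positions), with 65.0, 53.4 and 53.2% in the control libraries and 42.9 and 46.4% in the depleted ones. Those means lay -12.6 points apart (adjusted p 0.777), and the castaneus share of the calls ran from 51.1 to 68.9%. The domesticus locus there (chr4:147187850-147187921) had 54.1, 56.7 and 52.4% against 52.8 and 47.7%, which overlapped. The Smarca5 copy Gm13231 had 2 such castaneus loci, at chr4:145640970-145641035 with 29.0, 23.9 and 26.6% against 18.2 and 20.7%, and at chr4:145641166-145641204 with 12.03, 16.6 and 18.1% against 7.0 and 9.05%. Between these, its domesticus locus (chr4:145641080-145641140) had 22.7, 22.1 and 18.5% against 13.9 and 9.69%. Gm13231 was thus lower in both depleted libraries at each of these 3 loci, while its domesticus locus further upstream overlapped between groups. All calls were castaneus at its 2 castaneus loci and domesticus at its 2 domesticus loci, so no locus of this copy was read on both alleles.

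Other loci without overlap were at Gm13136, Gm13135 and Smarca5-ps. Gm13136 on the castaneus allele (chr4:147739015-147739211, 17 positions) had 59.6, 57.8 and 60.2% against 51.6 and 54.6%. The castaneus share of calls there was also lower without overlap, with 81.1, 86.4 and 83.0% against 80.6 and 79.1%. The domesticus allele at the same place had 38.7, 51.9 and 41.8% against 42.3 and 45.7%, a difference of -0.117 points with overlap. Gm13135 on the domesticus allele had 24.3, 20.04 and 22.2% against 16.9 and 10.6% at chr4:147275538-147275614, and 63.7, 61.1 and 60.8% against 47.8 and 58.0% at chr4:147276072-147276088. The castaneus share of calls ran from 0.526 to 2.73% at the first of these loci and from 55.8 to 64.8% at the second. The difference of -8.44 points at the first locus was -5.31 without Setdb1 depleted replicate 2, -5.49 without reads bearing the sequencer's filter mark and -5.76 over positions with more than 20 calls, and under none of these was its unadjusted p under 0.05. The difference of -8.96 points at the second locus was -1.02 over positions with more than 20 calls in every library and -3.90 without Setdb1 depleted replicate 1. Smarca5-ps on the domesticus allele (chr4:145464381-145464408, 4 positions) had 23.2, 19.5 and 36.8% against 15.6 and 17.3%, with control 3 well above the others. The castaneus share of the calls was also highest in control 3, at 75.4% against 45.5 to 59.6% in the 4 other libraries, and without control 3 the difference was -4.88 in place of -10.0 points.

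Higher in both depleted libraries were 2 castaneus loci among the 8 largest differences. In an intron of Tnfrsf8, which encodes the receptor CD30, mC was 46.6, 49.0 and 43.2% against 49.4 and 57.4% over 3 positions, and at least 98.9% of the calls were castaneus in every library. Its difference of 7.13 points was 3.16 without Setdb1 depleted replicate 2 and 11.1 without replicate 1. At the Tlk2 copy Gm13161 (chr4:147443325-147443349, 3 positions) mC was 0, 6.35 and 1.45% against 9.68 and 10.6%, on at most 126 calls. The Znrf1 copy on the domesticus allele (chr4:147407062-147407119) had 1.68, 0.704 and 0.917% against 0 and 0.466%, a difference of -0.868 points near 0. The domesticus allele had no higher locus without overlap.

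**Figure D4:**
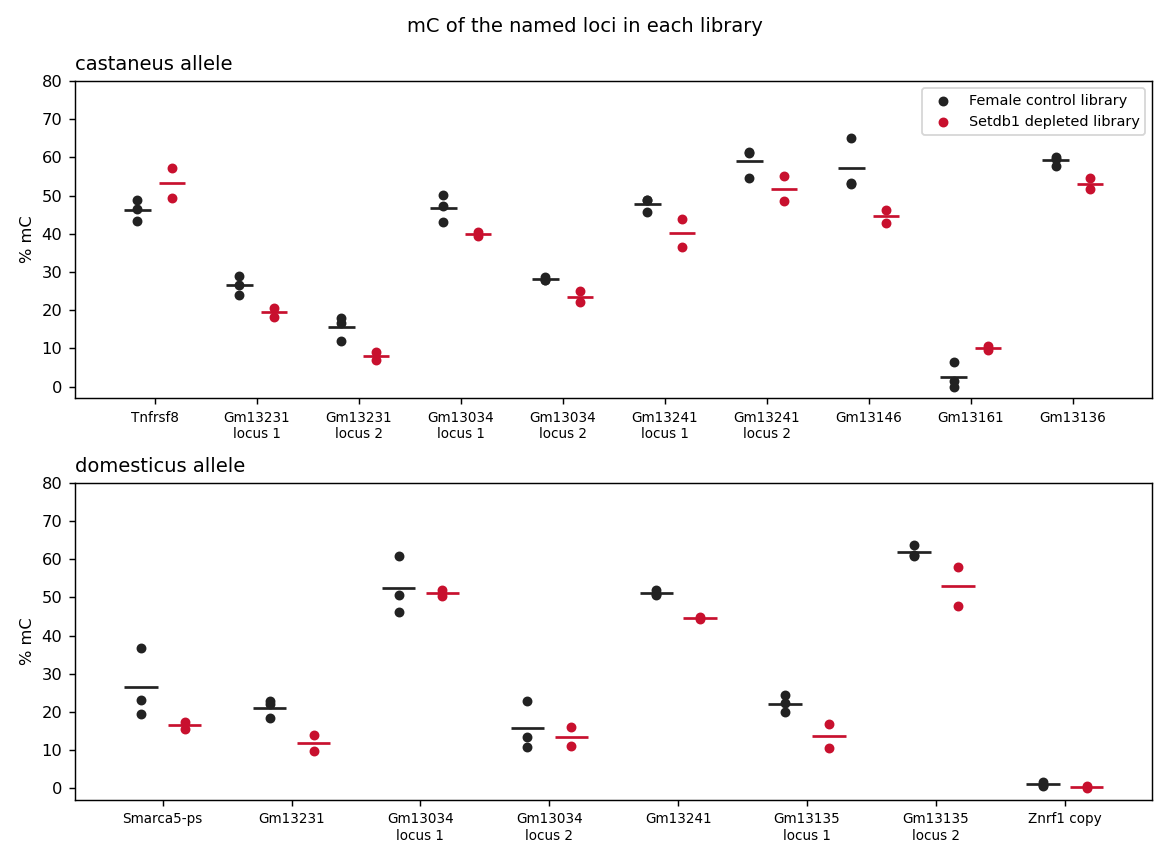
mC (y axis, %) of the named loci in each Female control and Setdb1 depleted library, ordered along the chromosome on each allele, with lines for group means. At Gm13241 on the domesticus allele the controls lay at 50.6 to 51.9% and the depleted libraries at 44.2 and 44.9%.

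Averaged over its loci, the Smarca5 family had 33.0, 33.3 and 33.0% in control and 27.5 and 28.7% in depleted libraries on the domesticus allele, without overlap. On the castaneus allele it had 31.66, 29.53 and 32.46% against 26.77 and 29.54%, which overlapped by 1 control library. The Cdv3 family had 42.6, 39.8 and 37.4% against 34.6 and 36.2% on the castaneus allele and 37.8, 43.2 and 41.3% against 35.1 and 35.9% on the domesticus allele, with no overlap on either. The castaneus average of the Tlk2 family was higher in depleted libraries, with 3.53, 5.38 and 3.85% against 5.97 and 7.39%, without overlap. It rested on the shallow locus of Gm13161 (chr4:147443325-147443349, 57 to 126 calls), at 2.60% against 10.1%. The deeper castaneus loci differed little, with 5.87% against 6.03% at Gm13162 and 4.30% against 3.87% at Gm13161 (chr4:147443040-147443157). On the domesticus allele the Tlk2 family had 4.24, 4.27 and 3.99% against 3.46 and 3.79%. These averages are descriptions. Among loci, the 9 castaneus loci of Smarca5 copies had a median difference of -6.07 points with 6 of 9 lower in the group mean, and the 12 domesticus loci -3.69 with all 12 lower. The Cdv3 copies had -7.27 with 5 of 7 lower and -4.10 with all 5 lower. Over all autosomal loci the median difference was 0 on both alleles, and 48.3% and 48.5% of loci were lower. The 3 castaneus loci of Smarca5-ps were each higher in the depleted mean, with 34.2% ± 2.66 against 39.9% ± 1.69 at the one without overlap (chr4:145464381-145464409). The copies of 1 family were therefore not all lower.

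Of the 6 castaneus and 6 domesticus loci of the Ppp2r5a, Tlk2 and Znrf1 copies, 0 had an unadjusted p under 0.05, which is near the shares over all loci (2.35% lower and 1.72% higher on the castaneus allele, 2.29% and 1.85% on the domesticus allele). Loci of Gm13244 and Gm13142 lay at 1.29 to 4.36%, those of Gm13162 and Gm13161 at 3.03 to 6.37%, and the Znrf1 copy at 4.57% on the castaneus allele and 0.465 and 0.667% on the domesticus allele. All copies of these starts in the interval kept 81.4 to 84.5%, 72.4 to 79.3% and 88.8% of the CpGs of their parents. The share of CpGs kept did not order the families by methylation, since the Smarca5 copies kept 72.8 to 84.3%.

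The parents' own starts were low where they were covered. Over the stretch of the parent that was copied, Cdv3 had 0 to 1.41% on the castaneus allele and 12.8, 3.98, 1.26, 2.70 and 2.12% on the domesticus allele in the 3 control and 2 depleted libraries, so that control 1 stood apart. Ppp2r5a had at most 1.06%, Tlk2 0% on the domesticus allele, and Znrf1 at most 1.53%. The start of Smarca5 had at most 3 calls in any library and could not be compared.

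Methylation of the Smarca5 copies varied with place within the copied start. From 300 to just over 100 bases before the parent's start, control mC averaged 53.1% on the castaneus and 48.2% on the domesticus allele. It was 44.0% and 40.5% from 100 bases before to 99 after the start, 21.7% and 21.9% from 100 to 299 bases after the start, 24.9% and 16.1% from 300 to 499, and 46.6% and 51.4% from 500 to 699. The profile therefore dipped after the start and was higher on either side, on both alleles. In the depleted libraries the dip averaged 16.1% and 17.5%, then 18.5% and 11.2%. The Cdv3 copies had 43.6% and 42.8% from 300 to 499 bases after the start and 56.1% and 61.5% from 500 to 699. Few copies fill each stretch, from 1 to 5, so place and copy are partly the same.

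**Figure D5:**
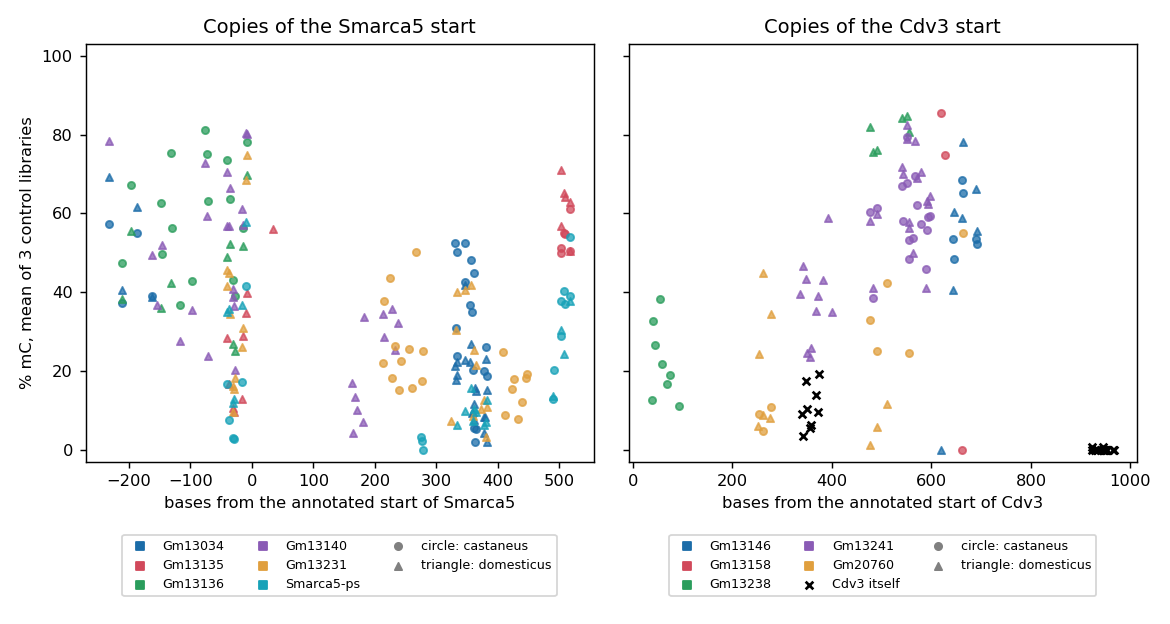
Control mC of each position (y axis, %, mean of 3 libraries) at the copies of the Smarca5 and Cdv3 starts against its distance from the annotated start of the parent (x axis, bases), with circles for castaneus, triangles for domesticus and crosses for Cdv3 itself. Smarca5 copies averaged 53.1% (castaneus) from 300 to just over 100 bases before the start, 44.0% from 100 before to 99 after it and 21.7% from 100 to 299 bases after it.

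Most single reads at these copies carried both states. Among reads with at least 3 CpG calls at the Smarca5 copies, 75.9% ± 2.31 (castaneus) and 69.4% ± 3.81 (domesticus) in control libraries held both methylated and unmethylated calls (SD, n = 3). At the Cdv3 copies these were 65.8% ± 4.23 and 66.1% ± 3.41, and at the domesticus locus of Gm13241 91.6% of all reads. They were a minority over all libraries at Gm20760 on the domesticus allele (22.1 and 13.2%) and at its first castaneus locus (19.3%). So they were at a castaneus locus of Gm13231 (chr4:145641166-145641204, 48.05%). At some loci of Smarca5-ps they were 7.55% (castaneus) and 38.8 and 47.15% (domesticus). Reads without a methylated call at the Smarca5 copies were 16.9, 17.9 and 14.0% against 22.3 and 20.9% on the castaneus allele and 22.5, 19.7 and 25.5% against 27.2 and 28.5% on the domesticus allele. Pooled over loci, such reads were more frequent in both depleted libraries than in every control library on both alleles. By single locus this held on the castaneus allele at Gm13034 beside the start and at Gm13231 (chr4:145641166-145641204). On the domesticus allele it held at Gm13034 upstream, Gm13231 (chr4:145641080-145641140) and Gm13135 (chr4:147275538-147275614). At all other loci of the Smarca5 copies such reads overlapped between the groups. Pooled over the Cdv3 copies such reads overlapped between the groups. They were 23.9, 24.9 and 32.9% against 36.5 and 31.6% on the castaneus allele. On the domesticus allele they were 26.0, 23.4 and 29.5% against 28.3 and 26.4%. By single locus they were more frequent in both depleted libraries at the domesticus locus of Gm13241, with 3.631, 1.529 and 3.198% against 6.007 and 6.757%. This also held at the castaneus locus of Gm13146, where depleted replicate 2 lay just above control 3 at 19.85%. At all other loci of the Cdv3 copies such reads overlapped between the groups. At castaneus loci without a copied start such reads were 76.0, 78.2 and 75% against 81.0 and 85.7%. These reads came from a locus at the start of Miip, with 98.8 to 100% such reads, and the locus nearest to Zfp979, with 0% in every library. Neither locus was higher by itself in both depleted libraries, so the pooled values followed the mix of reads from these loci. At domesticus loci without a copied start such reads overlapped between the groups, with 51.6, 47.2 and 48.3% against 45.6 and 52.9%. At the Ppp2r5a copies on the castaneus allele such reads were less frequent in both depleted libraries, with 79.9, 84.0 and 83.1% against 76.1 and 79.0%. The loci at Gm13142 and Gm13244 each overlapped by themselves. Of the other sets, those of the Tlk2 and Znrf1 copies on the domesticus allele were higher in both depleted libraries and the rest overlapped. For Tlk2 this held only when pooled, since Gm13161 and Gm13162 each overlapped by themselves. At the Tlk2 copies 76.0% and 80.4% of control reads held no methylated call.

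Allele assignment was uneven in the interval. The castaneus share of calls was 52.6 to 54.5% over the positions covered on either allele and 49.8 to 50.6% on the remaining autosomes. Over the 150 positions covered on both alleles it was 62.9 to 65.7%, against a mean of 49.9% ± 0.0573 in the control libraries elsewhere. Of 38 loci defined on the calls of both alleles, 11 (28.9%) had a share between 30 and 70%, against 47.7% of all loci, while 12 were over 70% and 15 under 30%. Among these 38 loci the share varied most between libraries at Smarca5-ps (chr4:145463856-145463888, from 44.2 to 69.2%), in an exon of Plod1, a lysyl hydroxylase of collagen (chr4:147931139-147931147, 24.2 points), and at Gm13146 (chr4:147187850-147187921, 18.2 points). Of the 472 positions, 57 lay in a sequence window without a further copy in mm10 at 90% identity. Over such positions the depleted mean differed by -1.97 points on the castaneus allele (28 positions) and by -0.640 points on the domesticus allele (41 positions).

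The share of castaneus calls was not called as changed at any of the 38 loci, against 0% of 27328 autosomal loci, with 3 higher (7.89%) at an unadjusted p under 0.05, at Gm13241, Gm20760 and Gm13162, and 0 lower. Over all loci 2.03% were higher and 1.47% lower. The share was 19.6% ± 0.315 in control and 23.3% ± 1.02 in depleted libraries at Gm13241, 49.4% ± 1.06 and 57.7% ± 3.12 at Gm20760, and 43.7% ± 2.15 and 53.6% ± 3.79 at Gm13162 (SD, n = 3 and 2). Of 16 loci covered on both alleles, none was called for a difference between the alleles in the depletion effect, against 0% of 10422 loci. At an unadjusted p under 0.05 it was 1 of 16, a share near the 4.49% of all loci. At that locus of Smarca5-ps (chr4:145464381-145464408), castaneus mC was 42.9, 27.9 and 38.0% against 42.5 and 63.7% and domesticus mC 23.2, 19.5 and 36.8% against 15.6 and 17.3%.

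The alleles differed from place to place, and the sign of their mean difference depended on the weighting. Over the 150 shared positions castaneus minus domesticus mC was 3.41, 0.335 and 2.29 points in the control and -0.403 and 4.09 points in the depleted libraries, a mean of 1.95 ± 1.94 (SD, n = 5). With calls pooled over positions it was -3.79 ± 0.994, and at the 12 shared positions without a further copy 6.08 ± 1.49. The median absolute difference per position was 5.40 points, against 0.815 elsewhere, and 18 of 150 positions differed by over 20 points, against 3.17%. At its shared positions Gm20760 showed both directions within 1 copy. At the first 3 (chr4:146932535-146932558) it had 7.65% ± 1.75 castaneus and 31.8% ± 10.98 domesticus mC (SD, n = 5), lower on the castaneus allele in 5 of 5 libraries. Of these, chr4:146932535 is not a CpG in the reference. The domesticus locus over this stretch (chr4:146932533-146932558, 6 positions) had 456 to 602 calls per library. Its mC was 12.03, 13.04 and 9.635% in control and 5.482 and 11.11% in depleted libraries. The domesticus level of the first 3 shared positions was thus not that of the whole locus. At the next 3 (chr4:146932747-146932780) Gm20760 had 28.8% ± 8.77 and 5.83% ± 2.96, higher on the castaneus allele in 5 of 5. The castaneus share of calls ran over the libraries from 84.9 to 94.6% at the first 3 positions and from 45.3 to 63.7% at the next 3, so the alleles were read at unequal depth at the first 3. There the share was also higher in both depleted libraries than in every control library. Whether reads of other copies had a part in the contrast was not tested. Gm13136 was higher on the castaneus allele in 5 of 5 libraries, with 58.6% ± 5.09 and 44.1% ± 5.04.

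Of the 5 castaneus and 9 domesticus loci outside the copied starts 0 had an unadjusted p under 0.05, a count near the same shares over all loci. Around the starts of Vps13d, Miip and 2510039O18Rik mC was at most 0.390% in any library. A repeat-rich locus 9433 bp from the start of Zfp979 had 79.0% ± 1.55 in control and 78.2% ± 0.729 in depleted libraries on the castaneus allele and 84.3% ± 1.65 and 85.0% ± 1.92 on the domesticus allele. In an intron of Zfp986 the domesticus allele had 61.7% ± 2.39 and 62.3% ± 2.20. In 3 domesticus loci 5336 to 10638 bp from Gm13147 the means were 36.2% ± 6.86 and 35.2% ± 18.1, 93.7% ± 1.56 and 91.7% ± 4.42, and 82.8% ± 3.85 and 85.4% ± 0.876 (SD, n = 3 and 2). In mm10 these had 70, 3 and 73 further copies at 90% identity, the Zfp986 locus 28 and the Zfp979 loci 4. The castaneus share of calls was 0 to 1.515% near Gm13147 and 0 to 5.405% at Zfp986. Near Zfp979 it was 66.8 to 85.5% at the castaneus locus and 0% at the domesticus one. Whether reads of other copies had a part was not tested.

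Among zinc finger genes elsewhere on the autosomes, 0 of 386 castaneus and 0 of 369 domesticus loci were called at an adjusted p under 0.05. At an unadjusted p under 0.05, 4 and 6 were lower and 2 and 2 higher. That is under the shares of 2.35% and 2.29% lower and 1.72% and 1.85% higher over all autosomal loci. Their median mC was 0.203% (castaneus) and 0.210% (domesticus), where a loss could hardly be called, so these counts do not show that the loci were unaffected. Of a list of 15 silencing factors, among them Trim28 and Dnmt1, 8 had a covered locus on each allele. None of their 14 castaneus and 16 domesticus loci was called at either threshold. Neither was any of 19 castaneus and 21 domesticus loci at 10 of 17 genes that are parents of processed pseudogenes in the interval, and at these numbers of loci a count of 0 is near the background. The median mC was 0.22% (castaneus) and 0.24% (domesticus) at the silencing factors and 0.12% and 0.05% at the parents, so the same limit holds.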

How the data were processed

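Per the labels and the study's methods, eRRBS libraries were made from MspI-cut DNA and sequenced as single-end reads of 100 bp with dark cycles. The authors trimmed reads with Trim Galore, aligned them with Bismark to an mm10 genome with SNPs masked, left out 7 bases at the 5′ end and 8 at the 3′ end, split reads by allele with SNPsplit without C/T SNPs, and extracted methylation with Bismark v0.13.0. CASAVA 1.4 is also named. Removal of PCR duplicates is not given in the sources used here. The deposited files hold, in a unit other than counts, 1 line for each CpG call of a read, with its position and a methylated or unmethylated letter.

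Calls were counted here per position, allele and library over 19 autosomes. mC is methylated calls as a percent of all calls, pooled over the positions of a locus. Positions and loci were tested with a quasi-binomial logistic model (Python 3.11.15, numpy 2.4.6, scipy 1.17.1), with dispersions moderated by limma 3.58.1 and not under 1, and Benjamini-Hochberg adjustment over all autosomal features of the allele. Allele differences were tested with limma on log2((mC + 0.5)/(C + 0.5)), with a prior variance following the counting variance, a choice made after tests on simulated data. Copies were found with blastn 2.17.0, as windows of 50 bp on either side of a position with at least 90% identity over 80% of their length. Copied starts were aligned over 1500 bp on either side of the parent's start. Zinc finger genes had at least 3 C2H2 motifs or a symbol starting with Zfp, Znf or Zkscan. Genes came from GENCODE and RefSeq annotation of mm10.

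The interval and all lists were chosen with earlier results of these data known. Named were loci past an adjusted p of 0.05, loci within 2 kb of Gm13034 or Gm13241, the 8 largest differences without overlap per allele, the 3 highest and lowest loci at zinc finger starts (there were none in GENCODE annotation) and the 3 widest spreads of castaneus share. Other loci and the families of copies were named after their values were seen. p-values are set against the spread between libraries, which may be technical. In the quasi-binomial model that spread was mostly the one shared by all autosomal features of the allele. The prior dispersion had 15.5 (castaneus) and 15.8 (domesticus) degrees of freedom for loci and 144 and 177 for positions. With 5 libraries, the spread of a single feature weighed less than this prior. Alternatives were the minimum of over 20 calls, pooled calls, positions without a copy, positions with a steady share, reference CpGs, unmarked reads (5.34 to 5.66% of calls came from reads with the sequencer's filter mark), limma, gaps of 300 bp, each library left out and a replicate block. Scripts were tested on simulated data.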

Additional observations from a re-analysis of the deposited data

How the results depend on the processing

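No position or locus of the interval passed an adjusted p of 0.05 under any alternative run, and the interval's mean stayed lower in Setdb1 depleted libraries. With calls pooled over positions the castaneus difference was -3.97 points, and castaneus minus domesticus mC was -3.79 points. With only positions that have no further copy, the domesticus difference was -0.640 points (41 positions) and the allele difference 6.08 points (12 positions), so the sign of the allele difference depended on the weighting. At loci of the Smarca5 and Cdv3 copies alone the difference was -4.75 (castaneus) and -5.54 points (domesticus), and without them -0.290 and -0.741, a split chosen after seeing the data. Many of the positions without them had little methylation to lose. The count of castaneus loci lower at an unadjusted p under 0.05 was 1 of 27 with limma (2.43% of all loci), and the count of domesticus loci was 6 of 32 with the replicate block, which also leaves out Female control replicate 3 (2.35%), and 3 without that library and no block. Leaving out 1 library gave -3.39 to -1.54 points (castaneus mean), -3.64 to -2.40 (domesticus mean), 0.178 to 1.06 points (castaneus share), 1.41 to 2.53 points (allele difference), 1 to 8 castaneus and 3 to 5 domesticus loci lower at an unadjusted p under 0.05, against 1.53 to 2.62% and 1.502 to 2.45% of all loci. With 1 depleted library left, it was assumed to vary like the controls. The domesticus difference of Gm13034 ran from -4.55 to 2.74 points upstream, positive without Female control replicate 1, and from -4.57 to 1.39 beside the start, positive also at 0.274 without Setdb1 depleted replicate 2. The cause was not tested.

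Replicate numbers 1 and 2 are shared by both groups, and the labels do not say whether they pair the samples. Deviations of same-numbered libraries from their group means correlated at -0.0317 and 0.0639 (castaneus) and -0.0555 and 0.0281 (domesticus). With 2 depleted libraries their deviations mirror each other, so these values cannot decide whether the samples are paired. With the replicate number as a block, over replicates 1 and 2 and so without Female control replicate 3, the mean differed by -2.95 points (castaneus) and -3.24 (domesticus), the castaneus share by 0.598 points, and 0 loci of the interval were called, with 3 castaneus and 46 domesticus loci over all autosomes, against 9 and 7 with all libraries and no block and 14 and 16 without that library and no block. Castaneus minus domesticus mC is taken within a library and has no block. Depth limits the smaller loci: the shallowest, at Gm13161, had 57 calls in 1 library.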
